A study of Arabidopsis thaliana with 6 samples.

Results

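The 37 genes described here carry out jasmonate synthesis, signalling and its best known outputs in Arabidopsis thaliana. They were chosen by locus identifier as genes of that pathway, with earlier results of these data known, and all 37 were found among the 33602 loci listed in each of the 2 deposited tables. The list holds the 12 repressor genes JAZ1 to JAZ12, 13 synthesis genes, 4 genes that conjugate, methylate or inactivate the hormone, 5 genes of perception and transcription, and 3 output genes. Messenger RNA was measured by RNA sequencing in whole seedlings of the accession Col, wild-type or labelled bbx4-1, a mutant name for the B-box zinc finger gene BBX4. Per the labels, seedlings of both groups were 4 days old, kept in constant red light at 22 °C, with 3 biological replicates each. The authors combined the replicates, so each genotype has a single FPKM value per gene (fragments scaled to transcript length and to the number of mapped fragments). No SD, no test and no p-value can therefore be given, and every difference below compares 2 combined columns.

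Jasmonate is a lipid hormone made from plastid linolenic acid. Lipoxygenase, allene oxide synthase and allene oxide cyclase act in the plastid, and reduction and beta-oxidation follow in the peroxisome. The enzyme JAR1 then joins the acid to isoleucine. The conjugate brings the F-box protein COI1 together with JAZ repressors, which are degraded, and this frees MYC transcription factors. MYC factors switch on defence and storage genes, and also many JAZ and synthesis genes and the CYP94 enzymes that destroy the active conjugate. In seedlings the hormone is known for wound responses and for restraint of growth.

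Summed over all 33602 loci, FPKM came to 790456 in wild-type and 792874 in the bbx4-1 column, and low values of short transfer RNA genes put the depth at about 48.1 and 49.8 M fragments. That estimate takes these values as single fragments and the deposited value as the mean of 3 libraries, and the fragment numbers and intervals below rest on it. The transcript of BBX4 itself was measured at 88.97 FPKM in wild-type against 1095.70 FPKM in the column labelled bbx4-1, so the gene that names the line was higher and not lower, and that label is used here only as a name. Green tissue markers were abundant in both columns, from 1426.12 FPKM (LHCB2.1) to 17575.14 FPKM (RBCS1A) in wild-type, and the 4 floral markers AP3, PI, AG and AMS lay at or under 0.60 FPKM. Some markers of other organs differed by as much as many members did. The root genes PYK10 and SCR had ratios of 1.12 and 1.17, the myrosin cell gene TGG2 1.21 and the seed oil body gene OLEO2 0.742. Each had a counting interval that excluded 1, but other genes of the same lists did not all share these directions. COBL9 and PHO1 of the root list were at 0.986 and 1.02, with intervals that held 1. TGG1, the other myrosin cell gene, was at 0.949 and the seed gene CRA1 at 1.15, with intervals that excluded 1. Of the other seed genes, OLEO1 was at 0.824 with an interval that held 1 and CRU3, with a mean of 0.68 FPKM, at 0.619. The part of these markers in the results was not tested. In whole seedlings, fewer cells of a type and less RNA per cell cannot be told apart.

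Most of the jasmonate genes had nearly the same level in both columns. Of the 37, 34 had a mean of at least 1 FPKM over both columns and were kept. Their log2 ratios, taken as log2(FPKM + 1) of bbx4-1 minus that of wild-type, had a median of 0.033, against 0.028 for all 18931 loci kept, and 20 of the 34 lay above 0, where 59.1% of all loci did. None was 2-fold higher and none 2-fold lower on this scale, a size reached by 0.106% and 0.0423% of all loci. At 1.2-fold, 5 members were higher (JAZ5, JAZ10, AOC2, MYC4 and CORI3), with 5.14% of all loci so called, and 4 were lower (JAZ4, JAZ7, LOX4 and CYP94B3), with 4.1% so called. These counts depended on the scaling of the columns, and with ratios centred on the median of all loci 2 were higher and 6 lower. The pseudocount of 1 makes this ratio understate differences of genes with few FPKM. CYP94B3 and CORI3 had the lowest and the highest ratio.

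To set the ratios against counting error, FPKM were turned into approximate fragment numbers. A 95% counting interval of the FPKM ratio that excluded 1 was found for 16 members above and 8 below, where 23.8% and 12.6% of 18740 loci with a known length were called. A gene with more fragments is called at a smaller ratio, so these shares depend on level. They were not taken among loci of like level. The counting interval covers counting error only. Variation between seedlings is not in it, and PCR copies counted as separate fragments may make it too narrow. Among all loci kept, the central 95% of log2 ratios ran from −0.33 to 0.35, and the ratios of 30 of the 34 kept members fell inside that range. Several members with intervals that excluded 1 were not extreme among loci with a mean FPKM within 1.5-fold of their own. Of such loci, 8.14% had a ratio as high as JAZ5 or higher, 11.6% for VSP1 and 4.21% for JAZ10. For LOX3 and LOX4, 7.76% and 4.09% had a ratio as low or lower.

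**Figure D1:**
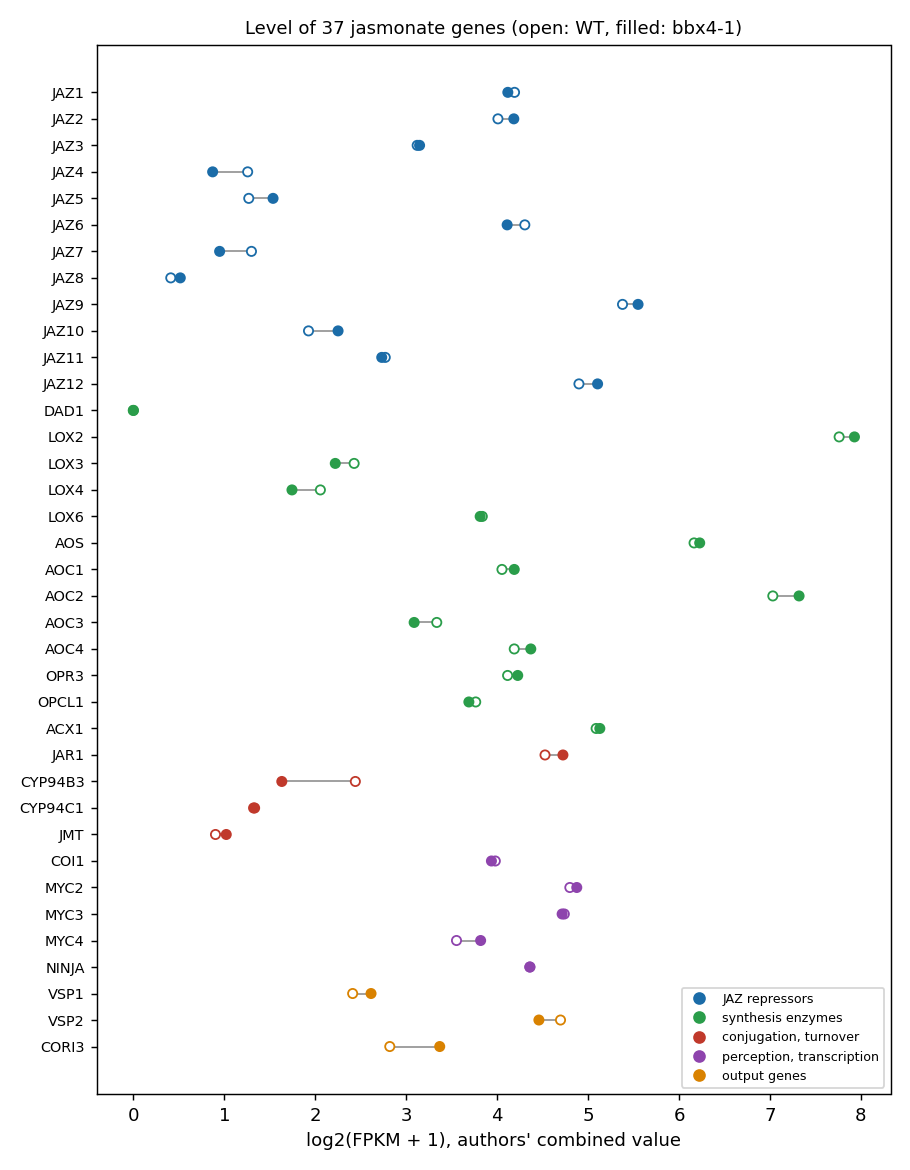
Level of each of the 37 genes as log2(FPKM + 1), with open circles for wild-type, filled circles for the column labelled bbx4-1 and colours for the roles. LOX2 and AOC2 stand highest, DAD1 lies at 0 in both columns, and CYP94B3 shows the widest gap between its circles.

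**Figure D2:**
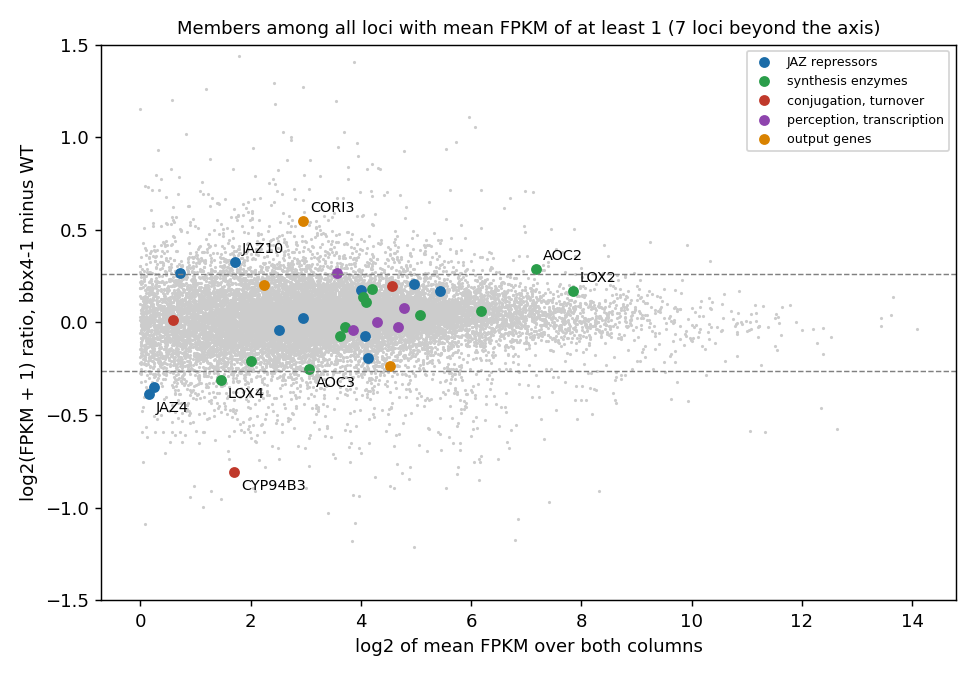
Log2(FPKM + 1) ratio (bbx4-1 minus wild-type) against log2 of the mean FPKM for 18931 loci in grey and the 34 kept members in colour, with dashed lines at 1.2-fold. Most coloured points lie between the lines, CYP94B3 lies far below them at −0.81 and CORI3 above them at 0.55, and 7 loci lie beyond the axis.

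Upstream sequence is shown for some of the members. JAZ4, JAZ5, JAZ7, JAZ10 and LOX4 were past 1.2-fold but had means under 5 FPKM, and their sequences are not shown. CORI3, AOC2, MYC4 and AOC3 had the largest log2 ratios in either direction among members with a mean of at least 5 FPKM. CYP94B3 was added after its values were seen, and JAZ3 because its sequence holds the core site of MYC factors most often. Each sequence is the 250 bases before the gene's annotated start, read 5′ to 3′ along the gene from the TAIR10.1 genome with the RefSeq annotation. Capitals mark the G-box CACGTG, the core site that MYC factors bind, and its variant AACGTG, searched on both strands, so that the variant may appear as CACGTT.
CYP94B3 (chr3:17976775-17977024, reverse strand): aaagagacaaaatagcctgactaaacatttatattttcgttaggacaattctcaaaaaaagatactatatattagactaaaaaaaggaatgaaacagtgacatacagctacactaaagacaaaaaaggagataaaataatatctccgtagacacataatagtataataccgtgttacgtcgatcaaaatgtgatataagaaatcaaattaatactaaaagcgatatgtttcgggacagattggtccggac
CORI3 (chr4:12310129-12310378, forward strand): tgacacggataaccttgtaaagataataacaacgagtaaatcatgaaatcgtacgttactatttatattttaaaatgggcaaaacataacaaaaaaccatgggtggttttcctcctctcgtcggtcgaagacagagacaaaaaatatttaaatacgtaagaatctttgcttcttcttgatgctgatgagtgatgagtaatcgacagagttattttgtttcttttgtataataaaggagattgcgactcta
AOC2 (chr3:9406419-9406668, forward strand): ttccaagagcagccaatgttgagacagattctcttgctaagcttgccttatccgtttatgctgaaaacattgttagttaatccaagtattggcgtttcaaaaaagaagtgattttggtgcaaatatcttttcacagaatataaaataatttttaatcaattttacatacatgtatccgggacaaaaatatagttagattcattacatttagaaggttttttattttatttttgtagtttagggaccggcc
AOC3 (chr3:9408910-9409159, forward strand): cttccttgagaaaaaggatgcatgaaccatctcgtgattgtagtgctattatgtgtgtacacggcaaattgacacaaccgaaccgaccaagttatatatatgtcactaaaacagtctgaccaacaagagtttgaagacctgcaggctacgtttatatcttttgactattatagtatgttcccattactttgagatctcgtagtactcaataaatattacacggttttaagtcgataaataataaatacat
MYC4 (chr4:9935686-9935935, reverse strand): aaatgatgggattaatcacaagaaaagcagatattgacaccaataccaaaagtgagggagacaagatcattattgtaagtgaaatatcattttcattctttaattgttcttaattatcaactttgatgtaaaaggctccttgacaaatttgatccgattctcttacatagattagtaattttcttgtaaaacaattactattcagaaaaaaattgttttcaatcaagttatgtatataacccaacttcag
JAZ3 (chr3:6119457-6119706, forward strand): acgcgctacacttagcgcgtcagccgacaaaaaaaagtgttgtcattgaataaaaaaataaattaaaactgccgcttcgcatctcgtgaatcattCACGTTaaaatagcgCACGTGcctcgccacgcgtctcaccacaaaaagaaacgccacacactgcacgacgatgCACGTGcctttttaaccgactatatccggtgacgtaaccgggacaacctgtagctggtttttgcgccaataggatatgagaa

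None of the first 5 sequences holds either motif, and JAZ3 holds the G-box at 2 places, starting 140 and 82 bases before the gene start, with the variant 155 bases before it. Over all 37 members, the G-box occurred in this window in 6 (JAZ2, JAZ3, JAZ7, JAZ8, AOS and ACX1), or 16.2%, and in 6.49% of 27443 protein-coding genes. The variant occurred in 9 members (24.3%), namely JAZ3, JAZ5, JAZ6, JAZ12, DAD1, LOX4, AOC1, MYC2 and VSP1, and in 7.54% of all genes. Of the members past 1.2-fold whose sequences are not shown, JAZ7 holds the G-box, JAZ5 and LOX4 the variant, and JAZ4 and JAZ10 neither. Members with a G-box were found on either side of 0, with JAZ2 at a log2 ratio of 0.17 and JAZ7 at −0.35. These are letter matches in a short window, and their absence says only that these letters do not occur there.

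LOX2, AOC2 and AOS, all of the synthesis route, were the 3 most abundant transcripts of the 37, and the values of LOX2 and AOC2 were somewhat higher in the bbx4-1 column. The other synthesis genes ranged from 0 to 33.03 FPKM in wild-type. DAD1 (AT2G44810), a plastid lipase that releases the fatty acid precursor and is known from anther filaments, was listed at 0 in both columns. LOX2 (AT3G45140), the main 13-lipoxygenase of leaves, had 215.88 FPKM in wild-type and 242.72 FPKM in the bbx4-1 column, a ratio of 1.12 (counting interval 1.11 to 1.14). LOX2 made up 91.2% of the summed FPKM of the 4 lipoxygenase members in wild-type and 92.72% in the bbx4-1 column. It ranked 462nd and 416th among nuclear loci.

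The other 13-lipoxygenases were far less abundant, and none had a ratio above 1. LOX3, a lipoxygenase of fertility and wounding, went from 4.38 to 3.66 FPKM, a ratio of 0.836 (counting interval 0.745 to 0.937). LOX4, its closest relative among the members, went from 3.16 to 2.35 FPKM, a ratio of 0.744 (0.646 to 0.856) and a log2 ratio of −0.31. LOX6, which supplies the early wound response, stood at 13.29 and 13.06 FPKM, a ratio whose interval held 1. The coding sequences of LOX3 and LOX4 are 81.1% identical with no identical stretch over 24 bases. Within a column, LOX2 was 49.3 times the level of LOX3 in wild-type and 66.3 times in the bbx4-1 column.

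AOS (AT5G42650), the only allene oxide synthase gene of the species, was at 70.78 and 73.93 FPKM, a ratio of 1.04 (1.01 to 1.08). The 4 allene oxide cyclase genes encode the enzyme that fixes the stereochemistry of the hormone, and they did not go the same way. AOC2 (AT3G25770) went from 129.82 to 158.81 FPKM, a ratio of 1.22 (1.19 to 1.26) and a log2 ratio of 0.29, and held 75.6% of the summed AOC level in wild-type. That log2 ratio is past the 1.2-fold line as deposited and falls just short of it when the columns are rescaled. AOC3 (AT3G25780), its neighbour on chromosome 3, went from 9.1 to 7.5 FPKM, a ratio of 0.824 (0.739 to 0.918).

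Within a column, AOC2 was thus 14.3 times the level of AOC3 in wild-type and 21.2 times in the bbx4-1 column. AOC1, at the other end of the same tandem, went from 15.60 to 17.23 FPKM, and AOC4 on chromosome 1 from 17.23 to 19.68 FPKM, ratios of 1.104 and 1.14. AOC1, AOC2 and AOC3 lie in a row between positions 9403779 and 9411090 of chromosome 3 (TAIR10.1). Their coding sequences are near-identical in places: AOC1 and AOC2 are 90.3% identical with a longest shared stretch of 47 bases, and AOC1 and AOC3 share a stretch of 73 bases. The sources used here do not say how the authors divided such reads, and the split among these 3 genes is uncertain.

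The later steps showed no difference of 1.2-fold. OPR3, the peroxisomal reductase of the pathway, was at 16.33 and 17.72 FPKM, a log2 ratio of 0.11. OPCL1, the ligase that activates its product with coenzyme A, was at 12.59 and 11.90 FPKM, and ACX1, an acyl-CoA oxidase of beta-oxidation, at 33.03 and 34.00 FPKM, both with intervals that held 1. Over the 12 synthesis genes kept, 7 lay above 0 and 5 below, with a median log2 ratio of 0.051, and no member changed sides when the columns were rescaled. The summed FPKM of all 13 genes was 541.2 in wild-type and 602.6 in the bbx4-1 column, a ratio of 1.113, and most of that difference lay in LOX2 and AOC2.

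Among the genes that make or remove the active conjugate, CYP94B3 stood apart. CYP94B3 (AT3G48520), a cytochrome P450 that hydroxylates jasmonoyl-isoleucine and so starts its inactivation, was at 4.43 FPKM in wild-type but 2.1 FPKM in the bbx4-1 column. It was 2.11-fold lower in FPKM (95% counting interval 1.78 to 2.51), from about 409 and 201 fragments, and its log2(FPKM + 1) ratio of −0.81 was the 29th lowest of 18931 loci. Of 3318 loci with a mean FPKM within 1.5-fold of its own, 0.211% had a ratio as low or lower, and the SD of their ratios was 0.198. CYP94B3 lies on the reverse strand of chromosome 3, positions 17974853 to 17976774, in a single coding exon, and no annotated gene overlaps it.

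CYP94C1 (AT2G27690), the P450 that carries the oxidation further, did not share that difference, with 1.5 and 1.52 FPKM. Its ratio of 1.01 (counting interval 0.806 to 1.29) left the interval of CYP94B3 wholly below its own, and its log2 ratio turned from 0.011 to −0.016 with ratios centred on the median of all loci. JAR1, which makes the active conjugate, went from 22.05 to 25.42 FPKM, a ratio of 1.15 (1.097 to 1.21). Within a column JAR1 was 4.98 times the level of CYP94B3 in wild-type and 12.1 times in the bbx4-1 column, mostly through CYP94B3. JMT, which forms the volatile methyl ester, was low at 0.87 and 1.03 FPKM, below the filter, and its interval held 1.

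The receptor and the transcription factors showed small differences. COI1, the receptor, was at 14.78 and 14.32 FPKM and NINJA, the adaptor that links JAZ proteins to a corepressor, at 19.52 and 19.55 FPKM. MYC2 (AT1G32640), the main MYC activator, was at 26.85 and 28.36 FPKM, a ratio of 1.06 (1.01 to 1.1), and MYC3 at 25.70 and 25.26 FPKM, with an interval that held 1. MYC4 (AT4G17880) was the exception, going from 10.74 to 13.11 FPKM, a ratio of 1.22 (1.13 to 1.32). Its log2 ratio of 0.265 lay just past the 1.2-fold line at 0.263 and fell short of it when the columns were rescaled. The median of these 5 genes was 0.002, and NINJA turned to −0.026 with ratios centred on the median of all loci. COI1 and MYC2 each overlap a gene on the opposite strand in the annotation, and the sources used here do not state whether counting used strand.

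The JAZ repressors differed widely in level, and their abundant members differed little between the columns. JAZ9 (AT1G70700) was the most abundant, with 40.61 FPKM in wild-type against 45.84 FPKM in the bbx4-1 column. JAZ12 followed at 28.85 and 33.41 FPKM, and JAZ6, JAZ1 and JAZ2 came next at 18.76, 17.27 and 15.10 FPKM in wild-type. In the bbx4-1 column the latter 3 stood at 16.27, 16.36 and 17.17 FPKM, so JAZ2 stood above both others there. JAZ9 and JAZ12 together held close to the same share of the JAZ level in both columns, JAZ9 with 28.7% and 30.48% and JAZ12 with 20.39% and 22.21%. The summed JAZ level was 141.5 and 150.4 FPKM, a ratio of 1.063.

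Of the 11 JAZ genes kept, 6 lay above 0 and 5 below, with a median log2 ratio of 0.026. With ratios centred on the median of all loci, JAZ3 turned from 0.026 to −0.0014. JAZ2, JAZ9 and JAZ12 were higher by ratios of 1.14, 1.13 and 1.16, and JAZ6 was lower at 0.867 (0.812 to 0.926), each with an interval that excluded 1. JAZ1, JAZ3 and JAZ11 had intervals that held 1. JAZ10 and JAZ12 each overlap genes on the opposite strand.

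The 1.2-fold differences among the repressors lay in the scarce members. JAZ10 (AT5G13220), known for splice forms that resist degradation, went from 2.80 to 3.76 FPKM, a ratio of 1.34 (1.16 to 1.57). JAZ5 went from 1.41 to 1.90 FPKM, a ratio of 1.35 (1.09 to 1.67), but its log2(FPKM + 1) ratio of 0.267 fell short of 1.2-fold once the columns were rescaled. The tables hold a value per gene and not per splice form.

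JAZ4 and JAZ7 went the other way. JAZ4 (AT1G48500) went from 1.39 to 0.83 FPKM, a ratio of 0.597 (0.445 to 0.799), from about 126 and 78 fragments. JAZ7 (AT2G34600), a short repressor that carries its own corepressor motif, went from 1.46 to 0.93 FPKM, a ratio of 0.637 (0.409 to 0.968), from about 58 and 38 fragments. JAZ8, another repressor of that kind, was at 0.33 and 0.43 FPKM, about 13 and 17 fragments, and a difference was not detectable at this depth. The coding sequences of the JAZ genes share no identical stretch over 25 bases, the longest being between JAZ3 and JAZ4.

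**Figure D3:**
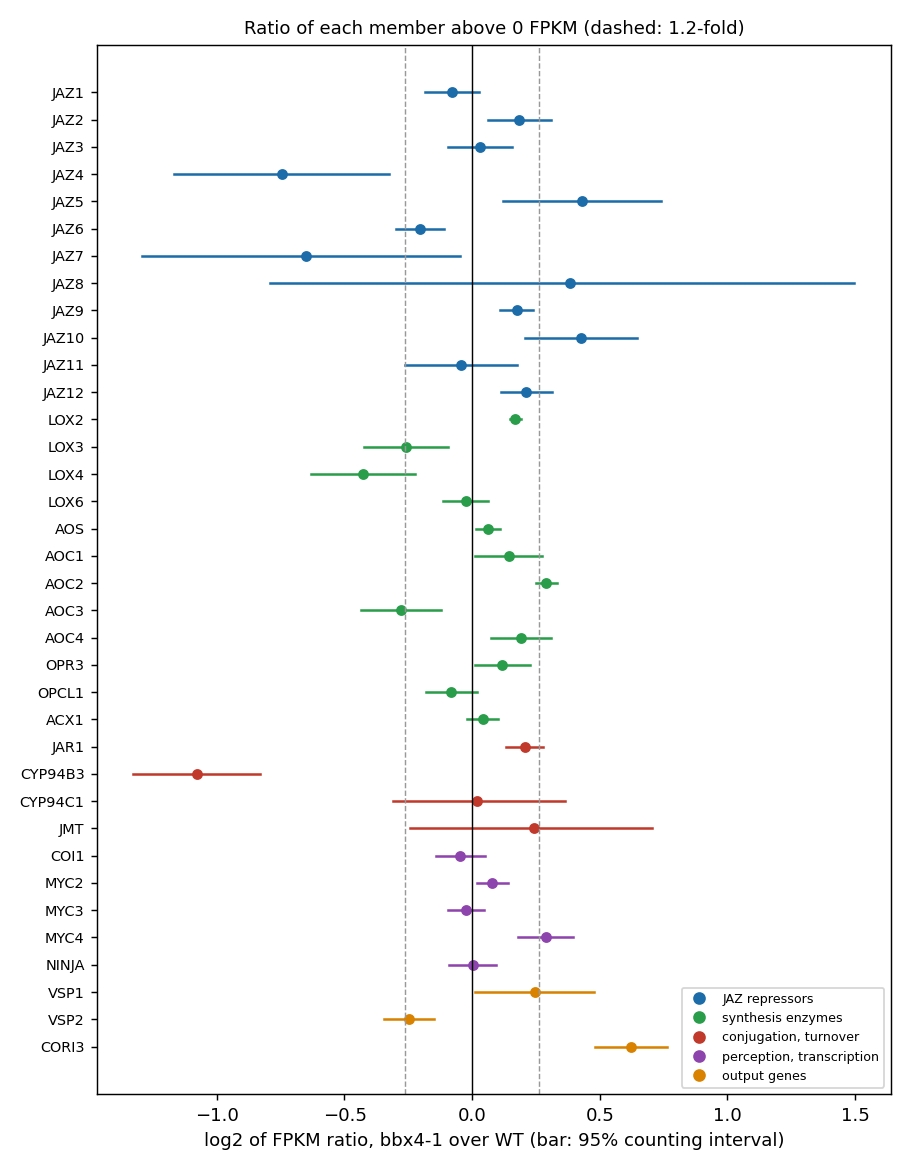
Log2 of the FPKM ratio, bbx4-1 over wild-type, for the 36 members above 0 FPKM, with bars for the 95% counting interval, colours for the roles and dashed lines at 1.2-fold. The bars of CYP94B3, JAZ4 and CORI3 lie wholly beyond the dashed lines, the bar of LOX2 is narrow and lies between 0 and the upper line, and the bars of JAZ8 and JMT cross 0.

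The output genes went different ways. CORI3 (AT4G23600), a cystine lyase named for its induction by the jasmonate mimic coronatine, was at 6.06 FPKM in wild-type but 9.33 FPKM in the bbx4-1 column. Its ratio was 1.54 (1.397 to 1.698), from about 673 and 1074 fragments, and its log2 ratio of 0.55 ranked 136th from the highest of 18931 loci. VSP2 (AT5G24770), a vegetative storage protein and a standard jasmonate marker, went from 24.94 to 21.00 FPKM, a ratio of 0.842 (0.787 to 0.901). VSP1 (AT5G24780), its tandem neighbour on chromosome 5, went from 4.32 to 5.12 FPKM, a ratio of 1.18 (1.01 to 1.39).

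The 2 storage genes thus lay on opposite sides of 0, and VSP2 was 5.77 times the level of VSP1 in wild-type and 4.1 times in the bbx4-1 column. Their coding sequences are 90.4% identical with a longest shared stretch of 54 bases, and the division of reads between them is uncertain. Their summed level was 29.26 and 26.12 FPKM. With 3 genes, the median of 0.20 is that of VSP1.

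Other jasmonate genes outside the 37 were mostly close between the columns, with PDF1.2 far apart. Of 35 listed genes whose symbols matched the annotation, 27 were kept, of which 22 lay above 0, with a median log2 ratio of 0.072. Over all loci kept, 59.1% lay above 0 and the median was 0.028. At 1.2-fold, 3 were higher and none lower, against 5.14% and 4.1% of all loci. The highest was the defensin gene PDF1.2, an output of joint jasmonate and ethylene signalling, at 0.18 FPKM in wild-type (about 5 fragments) and 5.30 FPKM in the bbx4-1 column. Near-identical copies of PDF1.2 exist, so its own value is uncertain. CLH1, a chlorophyllase also named for coronatine induction, went from 25.12 to 31.37 FPKM (log2 ratio 0.31). HPL1, a hydroperoxide lyase gene, went from 1.83 to 2.43 FPKM (0.28), and ACX5, a relative of ACX1, from 5.46 to 6.46 FPKM (0.21).

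The lowest of these were the 9-lipoxygenase gene LOX1 at −0.22 (21.81 to 18.65 FPKM), the NAC factor gene ANAC055 at −0.19, CYP94B1, a relative of CYP94B3, at −0.13, and the repressor gene JAV1 at −0.11. CYP94B1, at 5.92 and 5.31 FPKM, had a ratio of 0.897 with an interval that held 1. The intervals of ANAC055 and JAV1 held 1 as well. ORA59, the ethylene response factor that activates PDF1.2, was at 1.72 and 1.85 FPKM, a ratio of 1.08 (0.798 to 1.44), and the thionin gene THI2.1 was at 0.05 FPKM in wild-type and listed at 0 in the bbx4-1 column.

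A list of 12 touch and wound genes, which respond within minutes to handling and wounding as several jasmonate genes do, is given for comparison. Its genes were listed with earlier results of these data known, so its direction is no independent evidence. All 12 lay below 0, 10 of them by 1.2-fold, a size reached downwards by 4.1% of all loci, and the median log2 ratio was −0.54. TCH4 (−1.18), WRKY40 (−1.03) and ACS6 (−0.94) were the lowest and TCH3 (−0.018) the highest, with a counting interval that held 1. The 34 kept members had 14 ratios below 0 and a median of 0.033. The relation of the touch and wound list to the values of the members, lower or higher, was not tested.

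**Figure D4:**
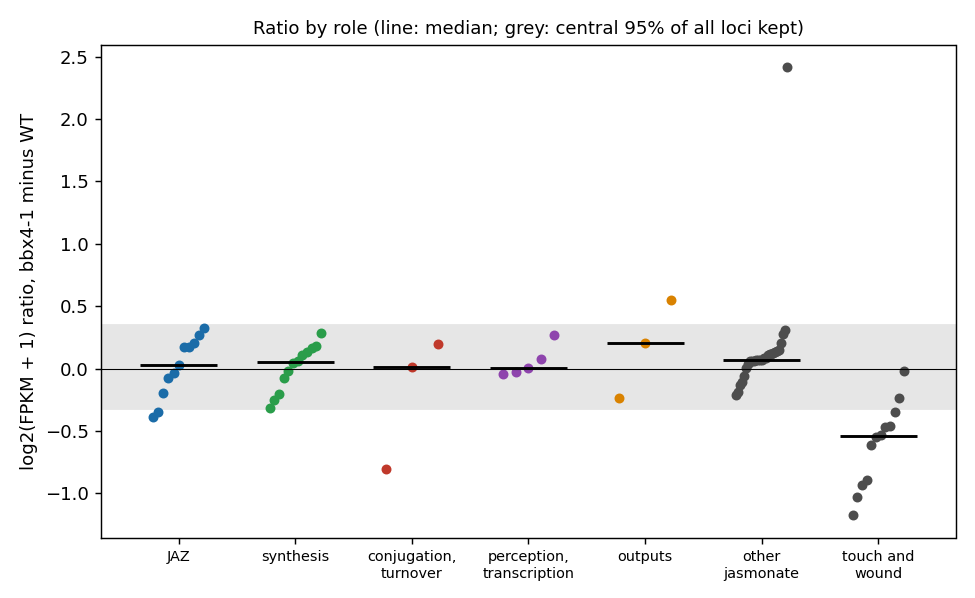
Log2(FPKM + 1) ratio (bbx4-1 minus wild-type) of the genes kept, by role, beside the other jasmonate genes and the touch and wound list, with a line at each median and a grey band for the central 95% of all loci kept. The medians of the JAZ, synthesis and perception groups lie at 0.026, 0.051 and 0.002, whereas the touch and wound list has its median at −0.54.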

How the data were processed

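Messenger RNA of 3 wild-type and 3 bbx4-1 samples was measured by sequencing poly(A)-enriched libraries, per the labels' protocols. The deposited values are FPKM, 1 column per genotype, and per the series' design text the authors combined the 3 replicates. Per the submitters' processing notes HISAT2 2.1.0, edgeR 3.0.8 and build TAIR10 were used. The sources used here give neither their roles nor the counter, annotation release, strand use or filters.

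Analysis used Python 3.11.15 with pandas 2.3.3, SciPy 1.17.1 and Biopython 1.88. Values were compared as log2(FPKM + 1), with loci kept at a mean of at least 1 FPKM and no rescaling. With 1 combined column per genotype no test was run. Fragment numbers were approximated as FPKM times exon length (TAIR10.1 RefSeq, all annotated exons) divided by the median FPKM times length of the lowest group of transfer RNA genes up to 75 bases (20 genes in wild-type, 18 in bbx4-1). Exact (Clopper-Pearson) 95% counting intervals of the FPKM ratio came from these numbers. Symbols of all 37 members matched the annotation, and 7 of 42 entries of the list of other jasmonate genes did not match and were left out. Genes named in the report outside the members were the 4 highest and 4 lowest of that list plus PDF1.2, ORA59 and THI2.1, the 3 lowest and the highest of the touch and wound list, BBX4 and organ markers. Genes under Other observations were chosen after their values were seen. Upstream windows were 250 bases. The members and lists were chosen with earlier results of these data known. Alternatives were pseudocounts of 0.1 and 5, a minimum mean of 5 FPKM or none, 2 rescalings, other fragment numbers and leaving out near-identical copies.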

Additional observations from a re-analysis of the deposited data

How the results depend on the processing

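Without replicate columns, no replicate could be left out and no variation between seedlings measured. No paired analysis was possible because the columns carry no replicates. The median log2 ratio of the members turned from 0.033 to −0.0023 with FPKM scaled to a common upper quartile, which shifted all loci by −0.035. Centring on the median of all loci shifted them by −0.028. Members at least 1.2-fold higher numbered 5, and 2 at a pseudocount of 5, 2 with either rescaling and 3 with a minimum mean of 5 FPKM. Members at least 1.2-fold lower numbered 4, and 1 at a pseudocount of 5. With a minimum mean of 5 FPKM, where fewer genes remain, there were 0. Such members numbered 5 at a pseudocount of 0.1, which adds AOC3 (−0.276), and 6 with either rescaling, which adds AOC3 and VSP2. Either rescaling thus turned 5 higher and 4 lower into 2 higher and 6 lower. At a pseudocount of 0.1, 1 member (CYP94B3, −1.04) was 2-fold lower, against 0. With fragment numbers reduced by a factor of 2, 10 members in place of 16 had a counting interval above 1. With a minimum mean of 5 FPKM, 3 in place of 8 had a counting interval below 1. With ratios centred on the median of all loci, the members' median was 0.0057. At that setting 11 in place of 16 had a counting interval above 1, and 10 in place of 8 had one below 1. AOS, AOC1, OPR3, MYC2 and VSP1, whose intervals began between 1.007 and 1.013 as deposited, no longer had intervals above 1. With a minimum mean of 5 FPKM the median was 0.062. CYP94B3 was at −0.41 and CORI3 at 0.37 at a pseudocount of 5.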

Other observations

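The genes named here were chosen after their values were seen. Among output genes with a mean under 1 FPKM, values went both ways. TAT3, a tyrosine aminotransferase gene, went from 0.68 to 1.24 FPKM, a ratio of 1.82 (counting interval 1.38 to 2.44). NATA1, an acetyltransferase gene of ornithine metabolism, went from 0.68 to 1.17 FPKM, a ratio of 1.72 (1.12 to 2.66). ERF1, an ethylene response factor gene, went from 0.29 to 0.18 FPKM and ANAC019 from 0.24 to 0.41 FPKM, both with intervals that held 1. The floral MYB genes MYB21 and MYB24, known jasmonate targets in stamens, were listed at 0 in both columns, as was DAD1.

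The peroxisomal genes ACX2, ACX3, ACX5, MFP2, AIM1 and KAT2 had log2 ratios of 0.069, 0.11, 0.21, 0.072, 0.12 and 0.14, each below 1.2-fold. Each had a counting interval of the FPKM ratio above 1, as 23.8% of loci with a known length did. The intervals of ACX2 and MFP2 began close to 1, at 1.011 and 1.004. Other peroxisomal genes differed: PXA1, ACX1 and OPCL1 stood at 0.039, 0.041 and −0.075 with intervals that held 1, and OPR3 at 0.11 with an interval above 1. The fatty acid desaturase genes FAD3, FAD7 and FAD8 stood at 0.15, −0.058 and 0.14.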
